A study of Mus musculus with 14 samples.

Results

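The 36 genes described here carry the motile cilium and the ependymal program, and they were followed through ATAC-seq peak lists of mouse neural stem cells with and without the ZFTA-RELA fusion. They were taken by symbol from a list of 9 transcription and multiciliation factors, 8 dynein genes, 4 central pair genes, 3 radial spoke genes, 8 other axonemal genes, 3 intraflagellar transport genes and the ependymal membrane gene Tmem212. All 36 were found among the 21883 protein-coding genes on chromosomes 1 to 19, X and Y of the RefSeq table of GRCm38.p6, which has the coordinates of mm10. A peak within 1 kb of either end of a gene is called a gene-end peak of that gene. Peaks over 1 kb from the ends of every protein-coding gene, but in a listed gene or within 20 kb of it, are called distal.

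ATAC-seq measures open chromatin through insertions of the Tn5 transposase, and each of the 14 libraries, 2 in each of 7 groups, was made from 50000 cells of cultured brain neural stem cells. ZFTA-RELA is the fusion gene of most supratentorial ependymomas. The first libraries comprised ZR, cells carrying the fusion and labelled with a PBS vehicle, against EV, the empty vector cells, of which replicate 1 is labelled with a DMSO vehicle and replicate 2 with a PBS vehicle. Fusion cells treated with GSK343 at 10 µM for 96 h (ZR_GSK343), an inhibitor of the H3K27 methyltransferase EZH2, and fusion cells treated with citraconate at 10 mM (ZR_dmCitra) were compared with ZR_DMSO, fusion cells titled DMSO but labelled with a PBS vehicle. A separately numbered set comprised Citraconate_50K, labelled as fusion cells under 10 mM citraconate, and DMSO_50K, labelled as empty vector cells under DMSO, so that by these labels treatment and cell line cannot be told apart there. Citraconate was given for 24 h or 48 h, with no time assigned to a library. The number of lines or clones behind each group is not stated, nor is any separate culture for the replicates, so the spread between replicates may be technical.

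Motile cilia are hair-like projections that beat by means of dynein motors sliding the microtubule doublets of an axoneme against each other. Dynein arms are bound along the doublets, the radial spokes and the central pair set the waveform, and intraflagellar transport carries the parts to the growing tip. In the brain, ependymal cells line the ventricles with tufts of such cilia and move cerebrospinal fluid. The program is started by the coregulators Gmnc and Mcidas, which act with E2F factors on Myb, Trp73, Ccno and Foxj1, and the RFX and FOXJ1 factors then act on the structural genes. Neural stem cells carry a single primary cilium, which needs intraflagellar transport but none of the beating machinery.

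Peaks were called in each library separately, and 12554 to 60472 were deposited per library. ZR_DMSO had the shortest lists as a group, 12554 and 21143 peaks, with median widths of 226 and 186 bp, against 330 and 260 bp in ZR_GSK343 and 419 to 533 bp in the other groups. The ZR_GSK343 lists held 19513 and 57634 peaks, so that of its replicate 1 was shorter than that of ZR_DMSO replicate 2. In each comparison, only as many top peaks by −log10 q were used from each of the 4 lists as the shortest of them held. At distal regions with a peak in both ZR libraries and neither EV library, the 50K libraries ran against their labels, at the ciliary genes as over all genes. At the reverse regions, with a peak in both EV libraries and neither ZR library, they ran with their labels. Of those at the ciliary genes, 18.5% and 33.3% held a deposited peak in DMSO_50K, against 3.70% in each Citraconate_50K library. Of 29 distal regions at these genes with a peak in both ZR libraries and neither EV library, 31.0% and 48.3% held a deposited peak in the Citraconate_50K libraries labelled as fusion cells, against 82.8% and 89.7% in the DMSO_50K libraries labelled as empty vector. Over all such regions it was 47.7% and 45.2% in Citraconate_50K, against 79.3% and 85.0% in DMSO_50K. The Citraconate_50K lists held 31864 and 29574 peaks, and the DMSO_50K lists 52771 and 60472. At 12390 peaks per list, the ciliary shares were 13.8% and 17.2% in Citraconate_50K, against 27.6% and 34.5% in DMSO_50K. Over all such regions they were 14.2% and 13.6%, against 22.8% and 24.4%. On chromosome 4, which carries Trp73, Dnaic1, Dnali1 and Tekt2, lay 2.62% and 2.72% of the best 12390 peaks of ZR and 5.94% and 6.09% of those of EV. In the separately numbered set the share on chromosome 4 was 6.16% and 6.07% in Citraconate_50K and 5.85% and 5.72% in DMSO_50K, near that of EV in both groups. Only DMSO_50K of these is labelled as empty vector. As a check of the labelled cell type, gene-end peaks among the best 12390 were read at 9 neural stem cell markers. In both EV libraries 5 had one, Sox2, Sox1, Fabp7, Hes1 and Vim. In each ZR library 2 had one, Fabp7 and Vim in replicate 1 and Hes1 and Vim in replicate 2. Of 6 oligodendrocyte lineage markers, Olig1 and Olig2 had one in both EV libraries and none had one in ZR. Of 6 microglia markers, Tmem119 had one in both ZR libraries and none had one in EV.

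The promoters of 8 of the genes named in the results are shown here. Each is the 300-base entry around the RefSeq start of transcription on GRCm38.p6, given 5′ to 3′ on the strand of the gene, and 33 of the 36 genes had such an entry. Capitals mark each match to the RFX motif letters GTTGCC or, on the other strand, GGCAAC. Ccno (chr13:112987552-112987851, plus strand), Rfx2 (chr17:56830959-56831258, minus), Rfx3 (chr19:28011117-28011416, minus) and Ift57 (chr16:49699044-49699343, plus) had a peak within 1 kb of this start in all 14 libraries. Ift88 (chr14:57423821-57424120, plus) and Ift172 (chr5:31291065-31291364, minus) were called gained in ZR_GSK343 against ZR_DMSO at equal list length. Rfx4 (chr10:84755798-84756097, plus) was called lost in ZR against EV at equal list length. Mcidas (chr13:112993618-112993917, plus) had no peak within 1 kb of its start in any library.
Ccno: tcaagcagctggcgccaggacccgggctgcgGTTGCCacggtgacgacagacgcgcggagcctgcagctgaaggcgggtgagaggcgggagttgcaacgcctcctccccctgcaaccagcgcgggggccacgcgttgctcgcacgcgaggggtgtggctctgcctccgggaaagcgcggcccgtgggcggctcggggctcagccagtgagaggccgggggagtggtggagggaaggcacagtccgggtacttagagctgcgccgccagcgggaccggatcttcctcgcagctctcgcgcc
Rfx2: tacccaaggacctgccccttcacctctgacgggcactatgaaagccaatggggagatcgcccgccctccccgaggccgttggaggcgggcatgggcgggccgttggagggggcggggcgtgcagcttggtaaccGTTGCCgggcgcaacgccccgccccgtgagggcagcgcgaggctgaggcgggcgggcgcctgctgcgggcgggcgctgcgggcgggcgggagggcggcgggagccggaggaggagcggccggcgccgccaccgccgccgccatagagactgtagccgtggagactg
Rfx3: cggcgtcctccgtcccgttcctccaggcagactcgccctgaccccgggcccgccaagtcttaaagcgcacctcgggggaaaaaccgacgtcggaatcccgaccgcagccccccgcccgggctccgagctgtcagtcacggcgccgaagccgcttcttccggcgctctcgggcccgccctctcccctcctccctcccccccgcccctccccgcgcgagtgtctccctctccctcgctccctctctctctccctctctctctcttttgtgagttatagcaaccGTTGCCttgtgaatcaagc
Ift57: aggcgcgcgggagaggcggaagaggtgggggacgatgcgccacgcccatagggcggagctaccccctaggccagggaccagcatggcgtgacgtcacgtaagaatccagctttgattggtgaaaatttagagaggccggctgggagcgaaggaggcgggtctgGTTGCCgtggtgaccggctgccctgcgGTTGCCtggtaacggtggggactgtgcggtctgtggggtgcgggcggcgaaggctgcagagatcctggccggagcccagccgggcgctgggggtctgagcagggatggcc
Ift88: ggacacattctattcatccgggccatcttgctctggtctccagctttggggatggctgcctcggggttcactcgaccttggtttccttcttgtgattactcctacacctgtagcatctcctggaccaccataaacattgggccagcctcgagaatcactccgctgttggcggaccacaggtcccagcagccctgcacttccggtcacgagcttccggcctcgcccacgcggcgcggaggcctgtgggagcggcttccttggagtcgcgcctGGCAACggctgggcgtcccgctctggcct
Ift172: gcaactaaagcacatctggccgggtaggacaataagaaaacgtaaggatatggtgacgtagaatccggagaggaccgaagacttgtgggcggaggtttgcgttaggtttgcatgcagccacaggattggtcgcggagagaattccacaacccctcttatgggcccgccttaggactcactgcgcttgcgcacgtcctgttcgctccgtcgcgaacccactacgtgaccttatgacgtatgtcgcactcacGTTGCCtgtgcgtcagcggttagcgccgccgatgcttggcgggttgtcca
Rfx4: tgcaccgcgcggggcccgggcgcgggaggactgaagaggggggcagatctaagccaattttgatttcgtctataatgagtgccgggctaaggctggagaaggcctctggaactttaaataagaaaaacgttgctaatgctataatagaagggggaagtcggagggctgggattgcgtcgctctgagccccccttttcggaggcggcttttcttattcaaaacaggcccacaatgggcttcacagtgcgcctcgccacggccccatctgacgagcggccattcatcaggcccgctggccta
Mcidas: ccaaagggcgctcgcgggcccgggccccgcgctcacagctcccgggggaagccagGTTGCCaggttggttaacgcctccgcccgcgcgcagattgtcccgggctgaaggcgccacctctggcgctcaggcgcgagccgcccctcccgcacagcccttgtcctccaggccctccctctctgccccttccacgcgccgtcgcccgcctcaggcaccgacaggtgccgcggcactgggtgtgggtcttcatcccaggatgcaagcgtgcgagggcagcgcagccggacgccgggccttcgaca
Ift57 held the RFX letters at 2 places, and the Rfx4 stretch shown held none. The promoters of Dnaic1 and Tmem212, which were also called at their starts, are not shown and held none. By gene, 15 of the 33 with an entry held the letters, so the 8 shown do not stand for all. Across the table, the RFX letters on either strand were in 16 of 39 promoters of these genes (41%) and in 12.5% of all 32851 promoters. The forkhead letters GTAAACA or TGTTTAC were in 3 of the 39 (7.69%), those of Ak7, Cfap43 and Myb, and in 3.65% of all promoters. The matches describe these windows and are not sites of binding.

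Over all 14 deposited lists, 4 of the 36 genes (11.1%) had a gene-end peak in every library, 21 (58.3%) in some and 11 (30.6%) in none. The same shares over all protein-coding genes were 20.4% in every library and 36.4% in none. Open in every library were Rfx2, Ccno, Spag6 and Ift57. Without a peak in any were Rfx3, Mcidas, Gmnc, Myb, Dnah1, Dnah5, Ak7, Spag17, Tekt1, Ccdc39 and Ccdc40. Gene ends in the table can miss the promoter in use: the annotated Rfx3 start shown above, inside the gene of the table, was open in all 14 libraries, Dnah1's promoter entry in 8 and Dnah5's in 2. The reverse holds for Spag6, whose peak lies at the end of its span in the table, with no peak at its promoter entry in any library. By promoter starts, 12 of the 33 genes with an entry (36.4%) had no peak in any library, against 37.5% of all genes.

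**Figure D1:**
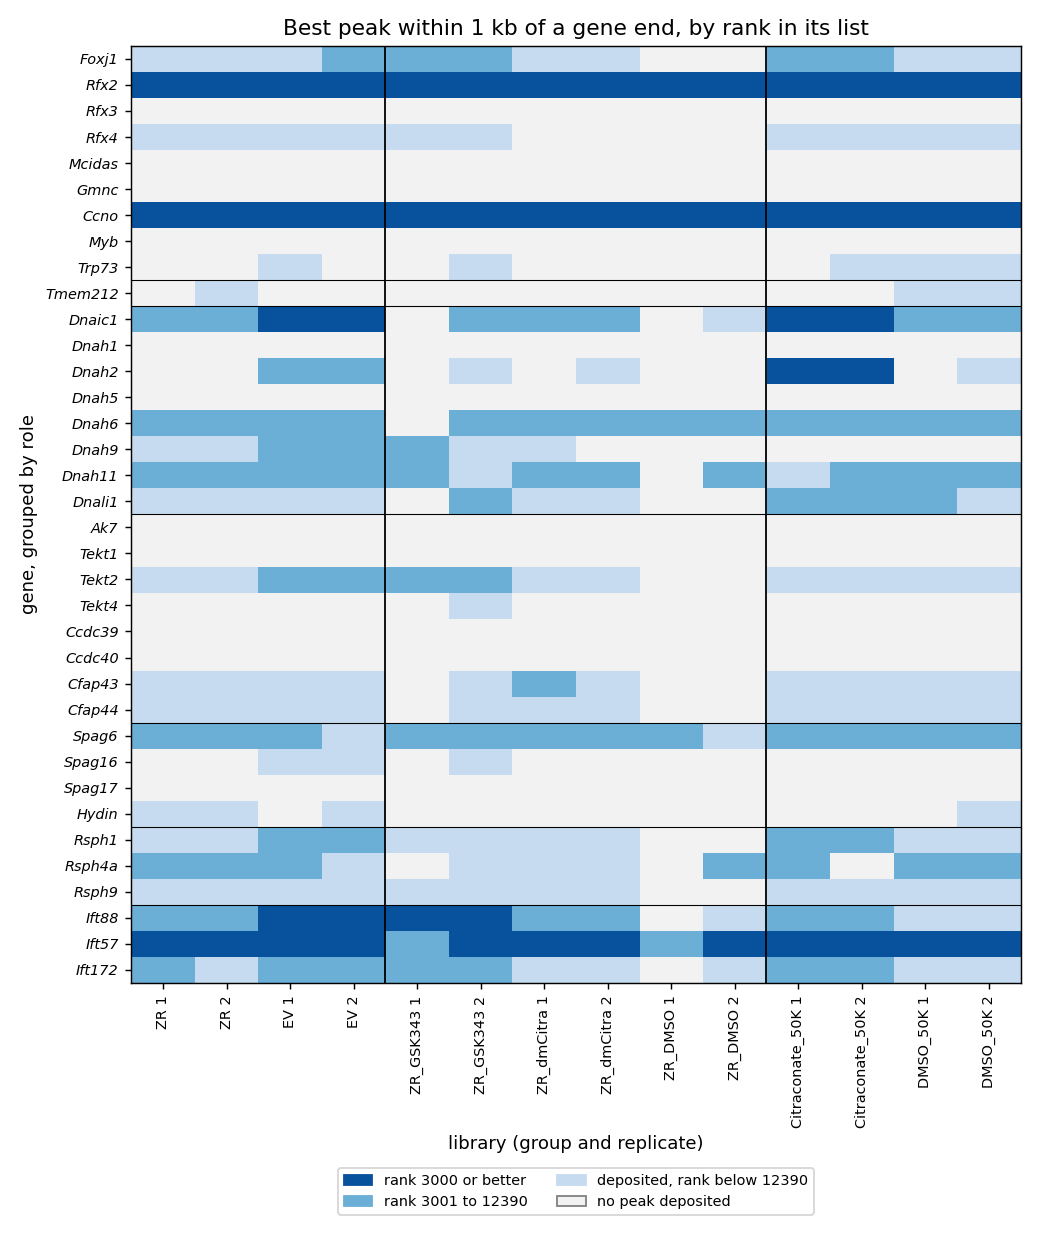
Best gene-end peak of each of the 36 genes (rows, grouped by role) in each of the 14 libraries (columns), shaded by its rank in the library's list from the best ranks (dark) to no deposited peak (pale grey). Rfx2 and Ccno are dark in all 14 columns, and 11 rows, among them Mcidas, Gmnc and Myb, have no peak in any column.

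With every list at its 12390 best peaks, the number of the 36 genes with a gene-end peak differed by at most 1 between the 2 libraries of a group. ZR had 10 and 9, ZR_GSK343 10 and 11, ZR_dmCitra 9 and 8, ZR_DMSO 5 and 6, and EV 14 and 13. Citraconate_50K had 13 and 13, and DMSO_50K 9 and 8. Among all protein-coding genes ZR_DMSO was lowest too. Of these, 30.1% and 30.2% had a gene-end peak in ZR, 35.8% and 41.3% in ZR_GSK343, 29.9% and 31.0% in ZR_dmCitra, 23.5% and 24.0% in ZR_DMSO, and 35.5% and 36% in EV. In Citraconate_50K it was 37.5% and 37.9%, and in DMSO_50K 27.1% and 26.5%. Distal peaks at the ciliary genes numbered 14 and 15 in ZR, 8 and 10 in ZR_GSK343, 13 and 13 in ZR_dmCitra, 14 and 16 in ZR_DMSO, and 14 and 11 in EV, and 15 and 17 in Citraconate_50K and 18 and 16 in DMSO_50K. The fewest lay in the GSK343 libraries, which also had few distal peaks over all genes, 5399 and 4454, against 5158 to 7566 in the other groups. Per 1000 distal peaks of all genes, those at the ciliary genes numbered 1.48 and 2.25 in ZR_GSK343, which overlaps the 1.85 and 2.14 of ZR_DMSO.

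**Figure D2:**
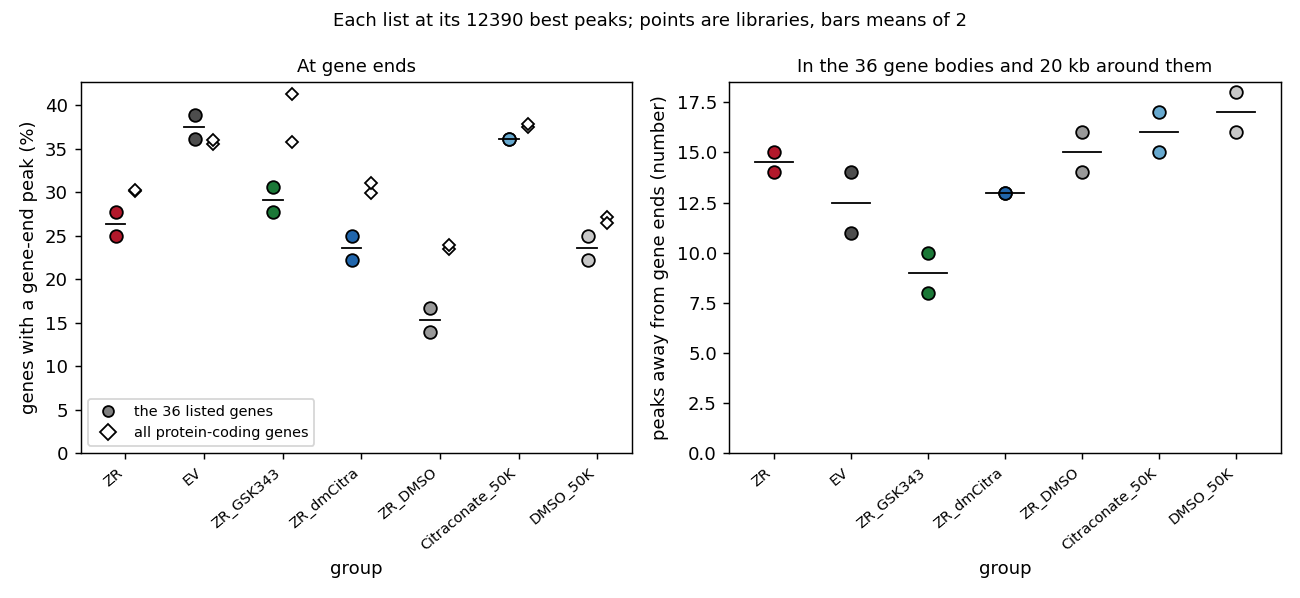
Left, percent of the 36 ciliary genes (circles, 1 per library, bars are means of 2) and of all protein-coding genes (diamonds) with a gene-end peak among each list's 12390 best peaks. Right, number of distal peaks in the same genes and 20 kb around them. ZR_DMSO is lowest on the left, with 5 and 6 of the 36 genes, and ZR_GSK343 lowest on the right, with 8 and 10 peaks.

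Among the transcription and multiciliation factors, Ccno, the cyclin that acts in centriole amplification of multiciliated cells, had the gene-end peak with the best rank of the 36 genes, 109 in ZR replicate 2. Its peak ranked 165 and 109 in ZR, 454 and 398 in ZR_GSK343, 150 and 209 in ZR_dmCitra, 213 and 272 in ZR_DMSO and 752 and 261 in EV. In the 50K lists it ranked 386 and 352 in Citraconate_50K and 167 and 175 in DMSO_50K. Ranks run from the top of lists of different lengths, and are compared between groups only where the lists were used to an equal length. The Ccno peak was thus among the strongest of every library, and the start of Mcidas, its neighbour on chromosome 13, had none in any.

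Rfx2, an RFX factor of ciliary genes, ranked 1382 and 1189 in ZR, 2655 and 1693 in ZR_GSK343, 405 and 629 in ZR_dmCitra, 1844 and 1678 in ZR_DMSO, and 1535 and 1252 in EV. It ranked 588 and 948 in Citraconate_50K and 876 and 1546 in DMSO_50K. At its promoter entry Rfx3 ranked 491 and 717 in ZR, 3601 and 1900 in ZR_GSK343, 1389 and 1895 in ZR_dmCitra, 4598 and 5135 in ZR_DMSO and 2321 and 2782 in EV. Both ZR libraries ranked this Rfx3 peak above both EV libraries. In the 50K lists it ranked 1788 and 2075 in Citraconate_50K and 2051 and 1309 in DMSO_50K, which overlap.

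Rfx4, the RFX factor of the developing brain, had its peak at ranks 36225 and 38149 in ZR and none in either library of ZR_dmCitra or ZR_DMSO. It ranked 17365 and 21204 in ZR_GSK343 and 14915 and 17330 in EV. The 50K lists held it at 14210 and 20206 in Citraconate_50K and 15621 and 19427 in DMSO_50K. At 34989 peaks per list, both EV libraries had a peak at the Rfx4 start and neither ZR library did. Of the treated fusion cells, the deposited ZR_GSK343 lists held it and the deposited ZR_dmCitra lists did not. Those lists differ in length, and 0 of the 14 libraries had it among the best 12390 peaks.

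Foxj1, the forkhead factor that drives motile ciliogenesis, has its peak at the gene end that lies within 1 kb of Rnf157, so the peak cannot be assigned to either gene alone. It ranked 24623 and 20248 in ZR, 6036 and 9291 in ZR_GSK343, 36064 and 27313 in ZR_dmCitra and 22698 and 10662 in EV, and neither ZR_DMSO library had one. In Citraconate_50K it ranked 12102 and 6445, and in DMSO_50K 14958 and 14995. The ZR and EV libraries overlapped at Foxj1. Only ZR_DMSO had no deposited peak, but its lists are the shortest. Among the best 12390 peaks, 5 of the 14 libraries had it: EV replicate 2 and both libraries of ZR_GSK343 and Citraconate_50K.

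Trp73, a p53-family factor needed for multiciliated cells, had a deposited peak in 5 libraries, at ranks from 26195 to 39375. They were ZR_GSK343 replicate 2, EV replicate 1, Citraconate_50K replicate 2 and both DMSO_50K libraries. Gmnc and Myb, like Mcidas, had no peak at a gene end or promoter entry in any library.

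Among the structural genes, Ift57, of the intraflagellar transport train, had a peak in all 14 libraries at ranks from 268 to 3654, and Spag6, a central pair protein, at ranks from 6151 to 16774. Of the dynein genes, Dnah6 and Dnah11 had a deposited peak in 13 libraries, Dnaic1 in 12, Dnali1 (an inner arm light intermediate chain) in 11, and Dnah2 and Dnah9 in 7 each. Dnah6 ranked from 3944 to 10312, and Dnah11 from 4954 to 14912.

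The radial spoke head genes had a peak in 12 libraries for Rsph1 (ranks from 10568 to 36640) and Rsph9 (15739 to 34571) and in 11 for Rsph4a (7246 to 30072). Cfap43 and Cfap44, of the tether of the inner dynein arms, had a peak in 11 libraries each, at ranks from 10936 to 36497 and from 15631 to 38608. Hydin had one in 4 libraries, none ranked better than 34593, and Tekt4 in ZR_GSK343 replicate 2 alone. In ZR_DMSO, with the shortest lists, Dnah2, Dnah9, Dnali1, Rsph1, Rsph9, Cfap43, Cfap44, Hydin and Tekt4 had none in either of its libraries. The peaks of Dnah6, Dnah9, Dnah11, Rsph9, Cfap43, Cfap44 and Hydin lie at the gene start, and that of Tekt4 at its far end.

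ZR was compared with EV at 34989 peaks per list. Fewer ciliary genes had a gene-end peak in ZR, 18 and 19 of 36, than in EV, 22 and 22. The difference was −3.5 ± 0.707 genes (SD of the difference, n = 2 libraries each; exact permutation test, two-sided, p = 0.333, the smallest it can give). A gene was called lost where both EV libraries and neither ZR library had the peak, and gained in the reverse case. By that rule 0 genes were gained, against 1.69% of all protein-coding genes, and 3 were lost (8.33%), against 3.77% of all genes. With 3 genes, the count rests on Rfx4, Dnah2 and Spag16, and only the Rfx4 peak lies at a gene's own start. The Rfx4 peak was still deposited in both ZR lists, at ranks 36225 and 38149, just past the length used. It was not called lost with lists as deposited, with −log10 q of at least 5 or at the shortest list length.

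Dnah2, an inner arm dynein heavy chain, had no deposited peak in either ZR library and ranked 8303 and 8586 in EV. Its peak lies at the far end of the gene within 1 kb of Kdm6b, which encodes an H3K27 demethylase, at chr11:69417485-69419998 in EV replicate 1. Spag16, a central pair protein, had none in ZR and ranked 20382 and 23636 in EV, at its far end beside Vwc2l. The Dnah2 promoter entry had no peak in any library, and that of Spag16 had one in ZR_GSK343 replicate 2 alone.

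Presence in a list is a coarse measure, so ranks were set side by side, in a reading added after the data were seen. In 12 of the 36 genes (33.3%) both ZR libraries ranked below both EV libraries, with an absent peak counted as below the list, against 25.4% of all genes. In 4 (11.1%), Ccno, Dnah6, Spag6 and Rsph4a, both ZR libraries ranked above both EV libraries, against 12.6% of all genes. The 12 included all 3 intraflagellar transport genes, 4 of the 8 dynein genes (Dnaic1, Dnah2, Dnah9 and Dnali1) and 2 of the 3 radial spoke genes (Rsph1 and Rsph9), with Rfx4, Spag16 and Tekt2. On chromosome 4, 3 of the 4 genes ranked lower (75%) and 0 higher, against 46.5% and 1.73% of all its genes, and 0 were lost and 0 gained, against 7.98% and 0.678%. Without that chromosome 9 of 32 genes ranked lower (28.1%), against 24% of all genes, and 4 higher (12.5%), against 13.3%.

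The structural genes that ranked lower moved by different amounts. Dnaic1, the outer arm intermediate chain, ranked 9501 and 9516 in ZR and 2230 and 2064 in EV, at a start shared within 1 kb with Fam219a. Dnah9, an outer arm heavy chain, ranked 23167 and 24090 in ZR and 4243 and 6551 in EV. In both genes the ZR libraries lay close together and apart from EV. In Dnali1, Rsph9 and all 3 intraflagellar transport genes the authors' fold over background overlapped between ZR and EV. Dnali1 ranked 26981 and 19717 in ZR and 13470 and 18994 in EV, and Rsph9 34571 and 29777 against 23204 and 26174. Ift57 ranked 828 and 615 in ZR and 268 and 328 in EV.

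Tekt2, a tektin of the doublets, ranked 22564 and 30291 in ZR and 6052 and 7794 in EV, at its far end beside Adprhl2. Rsph1, a radial spoke head protein, ranked 34550 and 29761 in ZR and 11504 and 12316 in EV. Ift88 of the intraflagellar transport train ranked 6034 and 4143 in ZR and 2686 and 1917 in EV. Dnah6, an inner arm heavy chain, went the other way, with ranks of 5196 and 4060 in ZR and 9711 and 7232 in EV.

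**Figure D3:**
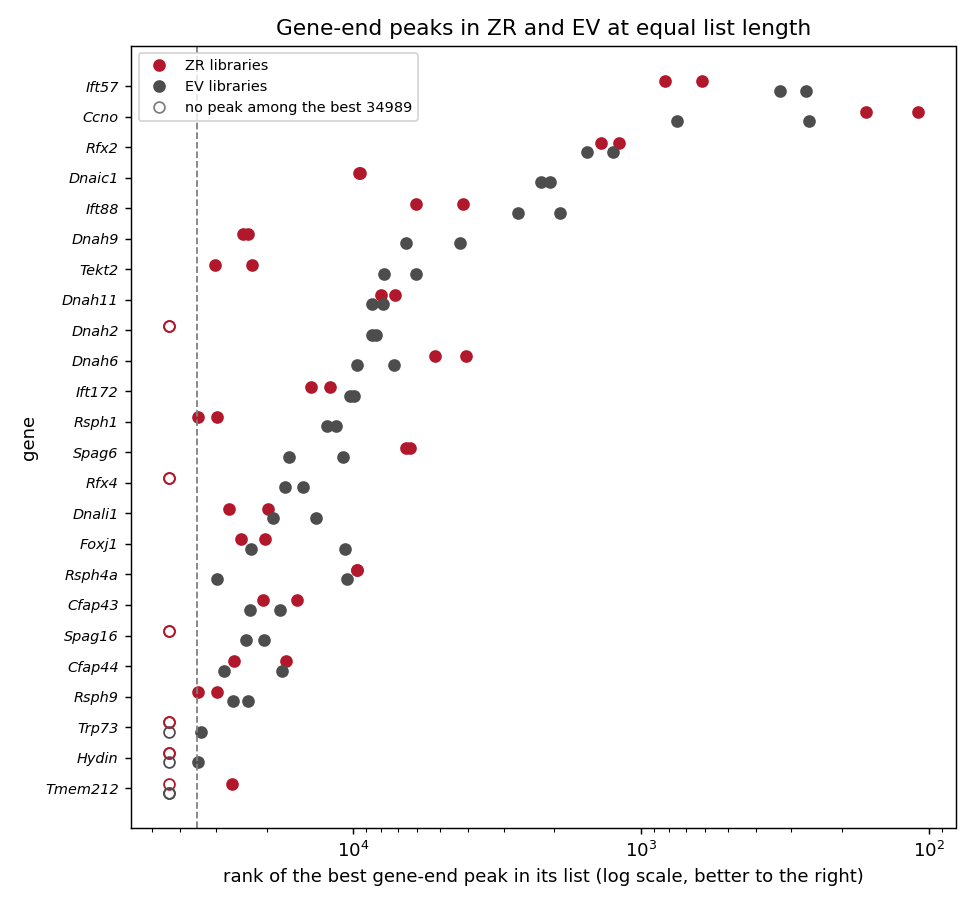
Rank of the best gene-end peak in each ZR library (red) and each EV library (dark grey) for the 24 ciliary genes with one in at least 1 of the 4 lists, on a log axis with better ranks to the right. Open circles mark no peak among the best 34989. Ccno, Dnah6, Spag6 and Rsph4a have both ZR points right of both EV points.

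Distal peaks at the ciliary genes numbered 57 and 53 in ZR and 63 and 61 in EV, a difference of −7 ± 3.16 (SD, n = 2 each; exact permutation test, two-sided, p = 0.333). The difference was −2 without chromosome 4 (exact permutation p = 0.667), and its sign turned, to 1.5 as deposited, 4 with −log10 q of at least 5 and 2 at the shortest list length. The peaks merged into 113 regions. Of these 29 (25.7%) were gained and 27 (23.9%) lost, against 25.5% gained and 21.4% lost among the 32718 distal regions of all genes. Without either EV library the lost regions numbered 41, with 31 gained without EV replicate 1 and 29 without replicate 2, and at the shortest list length 8 were gained and 7 lost. Of the gained regions 28 had no peak in either deposited EV list, and 24 of the lost ones had none in either deposited ZR list.

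The gained regions lay at 10 genes, 22 of them inside the gene: 6 at Hydin, 5 at Dnah11, 5 at Spag16, 4 at Rfx4, 3 at Rfx3, 2 at Tmem212 and 1 each at Ift88, Tekt4, Cfap43 and Ift57. The lost ones lay at 16 genes, led by Dnaic1, Dnah9 and Dnah11 with 3 each. Spag16 spans 898261 bp and Hydin 343286 bp, and long genes have more room for such regions. At Rfx4 the start was lost while 4 regions within the gene were gained and 2 lost. Which exon or intron each region lies in was not read, since the table gives gene spans alone.

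**Figure D4:**
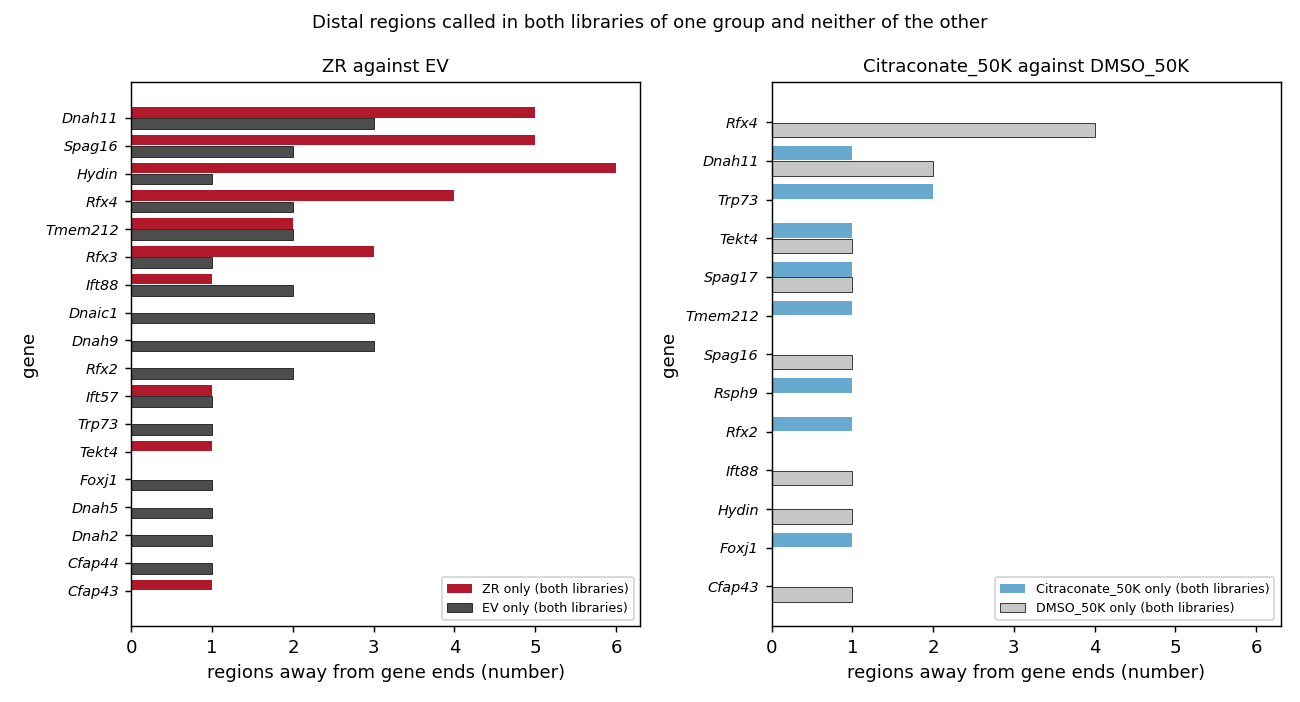
Distal regions per ciliary gene (bars, number of regions) present in both libraries of the first-named group alone or of its control alone, for ZR against EV (left) and Citraconate_50K against DMSO_50K (right). Hydin has 6 regions with ZR peaks alone, and Rfx4 has 4 with DMSO_50K peaks alone.

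The best-ranked gained region, chr12:117867555-117868636, lies 9346 bp downstream of Dnah11, an outer arm heavy chain, inside Cdca7l, and ranked 3314 or better in both ZR libraries. A region within Dnah11 at chr12:117980077-117980858 ranked 3858 or better, and another at chr12:118189485-118190083 ranked 10496 or better. Within Hydin, a central pair gene mutated in hydrocephalic mice, chr8:110321281-110322271 ranked 4523 or better. Within Rfx4, chr10:84886218-84886821 ranked 9335 or better. None of these 5 had a peak in either deposited EV list.

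The best-ranked lost region, chr14:57509464-57510156 within Ift88, ranked 11419 or better in both EV libraries, and chr17:56804538-56805586 within Rfx2 ranked 12326 or better. The next, chr12:117872264-117872794, lies 5188 bp downstream of Dnah11. Within Dnaic1, chr4:41618887-41619835 ranked 15177 or better and chr4:41615411-41616378 ranked 15555 or better. All 5 were absent from the deposited lists of ZR, ZR_GSK343, ZR_dmCitra, ZR_DMSO and Citraconate_50K, and the Rfx2 region alone had a peak in a DMSO_50K library.

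The 29 gained and 27 lost regions were then looked up in the 10 libraries that did not choose them, in their deposited lists. Of the gained regions, 79.3% and 75.9% had a peak in ZR_dmCitra, 3.45% and 51.7% in ZR_GSK343, and 10.3% and 24.1% in ZR_DMSO. Those of all genes were found at 87.3% and 85.5% in ZR_dmCitra, 7.53% and 58.7% in ZR_GSK343 and 16.7% and 32.0% in ZR_DMSO. The ZR_DMSO lists are short, and so is that of ZR_GSK343 replicate 1, with 19513 peaks against 57634 in its replicate 2. Of the 27 lost regions, 0 had a peak in any library of ZR_GSK343 or ZR_DMSO, and 3.70% in each ZR_dmCitra library. Of the lost regions of all genes, it was 1.96% and 11.1% in ZR_GSK343, 8.30% and 7.37% in ZR_dmCitra, and 0.601% and 1.07% in ZR_DMSO. In the separately numbered set it was 3.70% in each Citraconate_50K library, against 18.5% and 33.3% in DMSO_50K, and over all genes 7.21% and 6.55% in Citraconate_50K, against 20.5% and 25.1% in DMSO_50K. In these deposited lists, of unequal length, ZR_dmCitra held most gained regions and 1 of the 27 lost ones in each library. DMSO_50K held most gained regions along with some lost ones, as it did over all genes. At 12390 peaks per list no group held most gained regions. They were found at 17.2% and 24.1% in ZR_dmCitra, 10.3% and 17.2% in ZR_DMSO, 3.45% and 3.45% in ZR_GSK343, and 27.6% and 34.5% in DMSO_50K. Those of all genes were at 26.5% and 25.0%, 16.7% and 18.95%, 2.74% and 7.01%, and 22.8% and 24.4% in the same order.

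**Figure D5:**
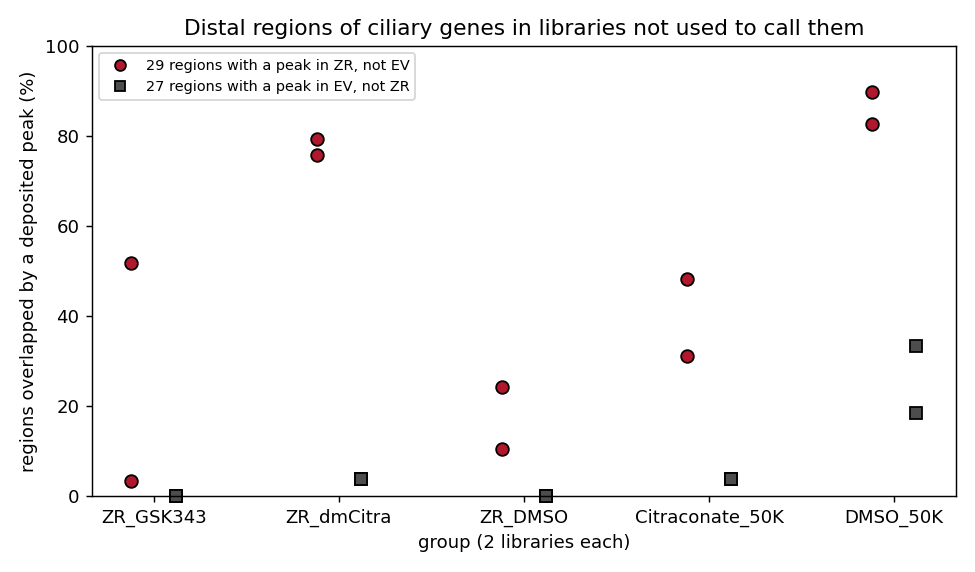
Percent of the 29 gained distal regions (red circles) and of the 27 lost ones (grey squares) that a deposited peak overlapped in each library of the 5 groups not used to call them. The deposited lists differ in length. DMSO_50K holds 82.8% and 89.7% of the gained regions, and ZR_dmCitra 79.3% and 75.9%.

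ZR_GSK343 was compared with ZR_DMSO at 12390 peaks per list. More ciliary genes had a gene-end peak under GSK343, 10 and 11, than in ZR_DMSO, 5 and 6. The difference was 5 ± 1 genes (SD, n = 2 each; exact permutation test, two-sided, p = 0.333). Gained were 4 genes (11.1%), Foxj1, Tekt2, Ift88 and Ift172, against 9.09% of all genes, and lost were 0, against 0.178% of all genes. The share gained was near that of all genes. As deposited the gained genes were Foxj1, Rfx4, Dnah9, Tekt2, Rsph1 and Rsph9, against 9.88% of all genes. With −log10 q of at least 5 they were Foxj1, Dnah9 and Tekt2, against 10.5%. At starts alone they were Ift88 and Ift172, against 9.35%, and Foxj1 has no promoter entry. Set against ZR in place of ZR_DMSO, 4 genes were also gained, but they were Foxj1, Tekt2, Rsph1 and Rsph9, and Rsph4a was lost, against 4.88% of all genes gained and 0.713% lost.

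Ift88 ranked 2231 and 2340 in ZR_GSK343, and in ZR_DMSO it had no deposited peak in replicate 1 and rank 13893 in replicate 2. Ift172, also of the intraflagellar transport train, ranked 5631 and 6967 in ZR_GSK343. In ZR_DMSO it had no deposited peak in replicate 1 and ranked 12458 in replicate 2, just outside the list. Tekt2 ranked 4879 and 11305 in ZR_GSK343 and had no peak in ZR_DMSO. The Ift88 and Ift172 peaks lie at the starts printed above, Ift172's also within 1 kb of Fndc4. By ranks, 5 genes (13.9%), these 4 and Spag6, were above in both ZR_GSK343 libraries, against 20.5% of all genes, and Ccno and Dnah6 (5.56%) below, against 3.74%.

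Distal peaks were fewer, 8 and 10 in ZR_GSK343 and 14 and 16 in ZR_DMSO (−6 ± 2, SD, n = 2 each; exact permutation test, two-sided, p = 0.333). All distal peaks went the same way, 5399 and 4454 in ZR_GSK343 and 7566 and 7478 in ZR_DMSO. With lists not reduced, the sign of the difference at the ciliary genes turned, to 44.5 as deposited and 26.5 with −log10 q of at least 5. As deposited, these peaks numbered 16 and 112 in ZR_GSK343, from lists of 19513 and 57634 peaks, and 14 and 25 in ZR_DMSO. The turn as deposited thus rests on ZR_GSK343 replicate 2. Of 26 regions 1 was gained (3.85%) and 5 lost (19.2%), against 5.38% and 12.4% among all distal regions. As deposited 5 were gained and 2 lost. The gained region lies downstream of Rfx2 at chr17:56762002-56762444. The lost ones lie at Dnah11 (3), Spag17 and Spag16, the best-ranked at chr12:118187214-118187555 within Dnah11, which ranked 3559 or better in ZR_DMSO. That region had a deposited peak in both libraries of ZR, ZR_dmCitra and EV.

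ZR_dmCitra was compared with the same ZR_DMSO libraries, so the 2 comparisons share their controls. Gene-end peaks were at 9 and 8 ciliary genes in ZR_dmCitra and 5 and 6 in ZR_DMSO, a difference of 3 ± 1 (SD, n = 2 each; exact permutation test, two-sided, p = 0.333). Gained were Dnaic1 and Ift88 (5.56%), against 4.41% of all genes, and lost were 0, against 0.558%. Dnaic1 ranked 10114 and 8606 in ZR_dmCitra, and in ZR_DMSO it was absent from replicate 1 and ranked 17476 in replicate 2. Ift88 ranked 4886 and 4560 in ZR_dmCitra, against absence in ZR_DMSO replicate 1 and rank 13893 in replicate 2.

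With ZR, whose lists are as long as those of ZR_dmCitra, in place of ZR_DMSO, the sign of the citraconate difference turned to −2.5 genes, 0 genes were gained, and Rfx4 and Hydin were lost, against 0.558% of all genes gained and 0.608% lost. By ranks, Rfx2, Ccno, Dnaic1, Ift88 and Ift57 had both ZR_dmCitra libraries above both ZR_DMSO libraries (13.9%, against 16.1% of all genes), and 0 genes had both below (2.75% of all genes). Distal peaks numbered 13 and 13 in ZR_dmCitra and 14 and 16 in ZR_DMSO (−2 ± 1.41, SD, n = 2 each; exact permutation test, two-sided, p = 0.333). Of 25 regions 4 were gained (16%) and 4 lost (16%), against 13.7% and 8.68% of all. As deposited 35 were gained and 3 lost, and the distal difference was 50. The best-ranked gained region lies within Hydin at chr8:110321317-110322177, which overlaps the fusion-gained one there, and others lie within Rfx3 at chr19:27904312-27905390 and Dnah11 at chr12:117993356-117993927.

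Citraconate_50K was compared with DMSO_50K at 29432 peaks per list, under the labels described above. Gene-end peaks were at 19 and 19 ciliary genes in Citraconate_50K and 16 and 19 in DMSO_50K. The difference of 1.5 ± 2.12 (SD, n = 2 each; exact permutation test, two-sided, p = 1) lay within the spread of the DMSO_50K libraries. Dnah2 was gained (2.78%), against 3.83% of all genes, and Tmem212 was lost (2.78%), against 0.777%. The Dnah2 call was lost with a 2 kb window, at starts alone and in the lists as deposited, and in a 500 bp window the 1 gained gene was Dnali1. By ranks, 11 genes (30.6%) were above in both Citraconate_50K libraries, against 31% of all genes, and 3 (Ccno, Tmem212 and Rsph4a, 8.33%) below, against 5.3%.

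The Dnah2 peak beside Kdm6b ranked 2592 and 2607 in Citraconate_50K, and in DMSO_50K it was absent from replicate 1 and ranked 56967 in replicate 2. This is the peak that EV had and ZR lacked. Tmem212, which encodes a membrane protein used as an ependymal marker, had no peak in Citraconate_50K and ranked 21224 and 22642 in DMSO_50K. Outside that group its peak was deposited in ZR replicate 2 alone, at rank 26378.

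Distal peaks numbered 42 and 48 in Citraconate_50K and 50 and 45 in DMSO_50K, which overlap (−2.5 ± 5.52, SD, n = 2 each; exact permutation test, two-sided, p = 0.667). In the lists as deposited the difference was −52 (exact permutation p = 0.333). Of 71 regions 9 were gained (12.7%) and 12 lost (16.9%), against 9.3% and 18.5% of all. As deposited 4 were gained and 42 lost, and without Citraconate_50K replicate 1 or 2 the gained ones numbered 17 or 14. All 12 lost regions were absent from the deposited Citraconate_50K lists, and 4 of them lie within Rfx4. The best-ranked lost regions were chr8:110382547-110383836 within Hydin and chr10:84885792-84886860 within Rfx4, which ranked 3950 and 9544 or better in DMSO_50K. The Rfx4 region overlaps the one gained in ZR. The best-ranked gained region, chr17:25451743-25451980 upstream of Tekt4, had a deposited peak in both libraries of both groups.

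Other genes of the pathway were read by the same rules. Of 56 further motile cilia genes with a match, 2 were gained in ZR against EV (Cfap45 and Tekt5) and 3 lost (Lrrc6, Rsph14 and Capsl), 3.57% and 5.36%, against 1.69% and 3.77% of all genes. Of 14 further genes of the multiciliation program Cdc20b was gained (7.14%), and of 19 further intraflagellar transport genes Dync2h1 and Kif17 were lost (10.5%). Under GSK343 against ZR_DMSO, 5 of those 19 (26.3%) were gained, Ift20, Ift43, Ift74, Ift80 and Kif3b, against 9.09% of all genes, with Ccdc103 and Ropn1l among the 56 further motile cilia genes (3.57%).

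In ZR_dmCitra against ZR_DMSO, Ift74, Ift80 and Wdr35 of the 19 were gained (15.8%) and Ift140 lost (5.26%), and Dnah7b, Cfap69, Cfap206 and Ropn1l of the 56 were gained (7.14%), against 4.41% of all genes gained and 0.558% lost. In Citraconate_50K against DMSO_50K, Dnah3, Cfap52 and Stk36 of the 56 were gained (5.36%) and Dync2h1 of the 19 lost (5.26%), against 3.83% of all genes gained and 0.777% lost. Of the 6 ependymal cell markers, 1 and 0 had a gene-end peak among the best 12390 in ZR, 2 and 2 in ZR_GSK343, 0 and 0 in ZR_dmCitra, 0 and 0 in ZR_DMSO, 1 and 2 in EV, 2 and 1 in Citraconate_50K and 0 and 0 in DMSO_50K. In the deposited lists, of unequal length, they numbered 3 and 3 in ZR, 2 and 2 in ZR_GSK343, 3 and 3 in ZR_dmCitra, 0 and 0 in ZR_DMSO, 2 and 2 in EV, 3 and 2 in Citraconate_50K and 4 and 4 in DMSO_50K. Of 9 neural stem cell markers, Sox2, Sox1, Nes and Hes5 were lost in ZR against EV at 34989 peaks (44.4%), against 3.77% of all genes. Of 5 neuron markers Syp and Neurod1 were lost (40%). Olig2, Aqp1 and P2ry12 were lost among the oligodendrocyte lineage, choroid plexus and microglia markers. No marker of these lists was gained. The part of these marker changes in the ciliary results was not tested.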

How the data were processed

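The peak names in the deposited files show that the authors ran MACS2 on 1 library at a time, with no version or settings in the sources used here. Per the submitters' processing notes, alignment was to mm10, and the tools include BWA, SAMtools and Picard. Whether reads were moved to the Tn5 insertion point is not stated. The deposited values of a peak are a score, a fold over background, and a p-value and a q-value as −log10. They are the authors' own and served only to rank or describe peaks of that list. No read counts are in the files, so the depth per library is unknown and intervals from counting cannot be made.

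Peaks on chromosomes 1 to 19, X and Y were ranked by −log10 q, and the 4 lists of a comparison were used down to the end of the shortest (34989, 12390, 12390 and 29432 peaks). Overlapping distal peaks were merged, with at least 1 bp counting as overlap. Group totals were tested by exact permutation over the 4 libraries, two-sided, which cannot go below p = 0.333 with 2 libraries a group. Python 3.11.15, numpy 2.4.6, pandas 2.3.3, scipy 1.17.1 and matplotlib 3.10.9 were used.

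The members and gene lists were chosen with earlier results of these data known. Ranks by library are given for the factors, with a range for Trp73. For members called gained or lost at equal list length, they are given at least in the groups of that comparison. Up to 5 gained and 5 lost distal regions per comparison could be named, by the poorer of their ranks. Of 57 further motile cilia genes listed, 1 (Rsph10b) had no match. Gene positions, strands and promoter sequences came from RefSeq tables. All 14 libraries were used.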

Additional observations from a re-analysis of the deposited data

Results flagged for a closer look

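The citraconate comparisons of the 2 library sets ran in opposite directions at Ccno. Its gene-end peak ranked 150 and 209 in ZR_dmCitra and 213 and 272 in ZR_DMSO, but 386 and 352 in Citraconate_50K and 167 and 175 in DMSO_50K. The difference of mean ranks, citraconate minus its control, was 261 places lower in the first set than in the second (−261). Of 6 results set side by side in both sets, this was the 1 in which every library of each set lay on opposite sides. The difference between the sets was not tested, the lists come from separately numbered libraries of different lengths, and the labels of the second set join treatment and cell line.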

How the results depend on the processing

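Of the values of gene-end and distal totals and gene-end calls under other settings, 11 changed sign and 29 moved past the limits set, and of those of distal region counts 31 moved, by over 1.5 times. Some of the rest kept their sign but not their size: the distal difference of ZR was −2 without chromosome 4, and that of Citraconate_50K −52 as deposited and −59 with −log10 q of at least 5. With the lists as deposited, the distal difference became 1.5 for ZR, 44.5 for ZR_GSK343 and 50 for ZR_dmCitra, each against its control, the gene-end difference of Citraconate_50K became −2, and 7 genes were gained in ZR_dmCitra and 0 in Citraconate_50K. With −log10 q of at least 5 and lists not reduced, these values were 4, 26.5, 49, −2.5, 7 and 0. The deposited ZR_GSK343 lists lay far apart, with 16 distal peaks at the ciliary genes in replicate 1 and 112 in replicate 2. With all lists at the shortest length, the distal difference of ZR was 2, and 5 genes were gained and 0 lost in Citraconate_50K. Within 500 bp, or at starts alone, 1 gene (Rfx4) was lost in ZR. At starts alone 2 were gained in ZR_GSK343 and 0 in Citraconate_50K, as with a 2 kb window (0). With ZR as control, ZR_GSK343 lost 1 gene, and ZR_dmCitra gained 0, lost 2 and differed by −2.5. Ranks in place of presence, added after the data were seen, gave 4 gained and 12 lost in ZR, 2 lost in ZR_GSK343, 5 gained in ZR_dmCitra, and 11 gained and 3 lost in Citraconate_50K. Over all settings, gained distal regions numbered 8 to 34 in ZR, 0 to 5 in ZR_GSK343, 4 to 35 in ZR_dmCitra and 2 to 17 in Citraconate_50K, and lost ones 7 to 41, 2 to 10, 1 to 7 and 7 to 43 in the same order. The cause was not tested.

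Leaving out 1 library at a time gave 0 to 1 gained in ZR, 0 to 1 lost in ZR_GSK343 and in ZR_dmCitra, and, for Citraconate_50K, 1 to 4 gained, 1 to 2 lost, a gene-end difference of 0 to 3 and a distal difference of −5.5 to 0.5. The libraries that moved these counts were ZR replicate 1 (Tmem212 gained), ZR_GSK343 replicate 2 (Dnah6 lost), ZR_DMSO replicate 1 (Rsph4a lost), Citraconate_50K replicate 1 (distal difference 0.5, 2 gained, 2 lost) and both DMSO_50K replicates (difference of 0 without replicate 1, 4 gained without replicate 2). With replicate number as a block, the differences kept their sizes (−3.5 gene-end and −7 distal for ZR), with p = 0.5 by an exact sign-flip test, the smallest it can give; the numbers are not known to pair the cultures. The exact tests here cannot reach the usual threshold with 2 libraries a group.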
